A study of Homo sapiens with 6 samples.

Results

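The genes described here are the heat shock proteins, their J-domain co-chaperones and the heat shock factors HSF1 and HSF2, measured by RNA sequencing in the established paediatric medulloblastoma line D283 Med (medulloblastoma is a cerebellar tumour). They were taken by symbol, as rows of the deposited table beginning HSPA, HSPB, HSPD, HSPE, HSPH, HSP90, DNAJA, DNAJB or DNAJC, plus the HSF pair. Names with a hyphen (4 rows) or with the pseudogene suffix of P plus a number (41 rows) were left out. The suffix also removed HSPBP1 and HSPBAP1, which are genes and not pseudogenes, and they were counted among the partners. That left 80 of 31785 rows. GENCODE 29 annotates 69 of them as protein coding and 9 as pseudogenes (8 HSP90 rows whose names end in a number plus P, and HSPA7), and another 2 rows share the name HSPA14.

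The study compared 3 libraries of D283 cells labelled Musashi-1 knockdown with 3 libraries of D283 cells labelled WT. Musashi-1 (gene MSI1) binds RNA and regulates translation in neural stem cells. Both groups grew in the same serum-containing medium. The sources used here give no method or timing of the knockdown, no control construct for WT cells and no number of cultures behind a group, so p-values measure only the spread between libraries, some of which may be technical. The WT columns of the table are headed VV, which the labels do not explain, and were taken as WT by elimination, so the numbers WT 1 to WT 3 are those of the columns.

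Chaperones bind unfolded or partly folded proteins. HSP70 proteins cycle between an ATP-bound open state and an ADP-bound closed state. J-domain proteins (HSP40, the DNAJ genes) deliver clients and trigger ATP hydrolysis, and nucleotide exchange factors, among them the HSP110 proteins, release the client. HSP90 acts later on kinases and receptors, the small heat shock proteins hold aggregating clients, and HSP60 with its lid HSP10 folds proteins inside mitochondria. HSF1 switches on many of these genes after heat or proteotoxic stress, while in the endoplasmic reticulum (ER) a separate set answers to the unfolded protein response.

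Reads recovered from the table came to 18895997 to 24442276 per knockdown library and 17299671 to 38790342 per WT library. MSI1, the targeted gene (chromosome 12, 120341330 to 120369180, minus strand), had 1385, 1197 and 1281 normalised reads in knockdown 1, 2 and 3, against 1586, 1572 and 1378 in WT 1, 2 and 3. WT 3 lay below knockdown 1, and the difference of −0.21 (SE 0.12) did not pass the test (limma, Benjamini-Hochberg adjusted p = 0.304), so MSI1 mRNA gives no check of the labels beyond the spread between libraries. Of 6 medulloblastoma Group 3/4 markers, OTX2, MYC and NEUROD1 were expressed above the filter level used below, while EOMES, BARHL1 and LMX1A were under it. The 6 summed to 54056 to 61224 normalised reads per knockdown library and 38155 to 46747 per WT library, with no overlap. The sum was not tested, and none of the 3 expressed markers passed the test. Their limma adjusted p was 0.229 for OTX2, 0.0976 for MYC and 0.452 for NEUROD1, whose groups overlapped. The 4 white blood cell markers in the table summed to 2.02 to 10.1 normalised reads per knockdown library and 7.57 to 17.7 per WT library. Of 6 fibroblast markers 3 reached the filter level, with sums of 716 to 1062 in knockdown and 993 to 1304 in WT, and of 3 endothelial markers 1 did. Of 4 epithelial markers 2 did, with sums of 6065 to 9615 in knockdown and 4480 to 12071 in WT, nearly all of it KRT8 (means of 8015 and 8150). Of 3 neuroectoderm markers 2 did, with sums of 5780 to 8019 in knockdown and 4791 to 6135 in WT. SOX11, a neural progenitor factor in that list, rose to 1816 normalised reads in knockdown, against 1063 in WT (difference 0.73, limma adjusted p = 0.0167). The rest of the list did not follow it. NES had overlapping groups (difference 0.09, limma adjusted p = 0.815). TUBB3 lay under the filter level, with means of 9.94 in knockdown and 22.9 in WT. The part of these markers in the chaperone results was not tested.

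WT 1 stood apart from the other libraries in the chaperone genes. It had the highest value of the 6 libraries in 28 of the 63 tested chaperone rows (44.4%), against 20.6% of all tested genes. The 80 rows together took 1.68%, 1.68% and 1.53% of the reads in knockdown 1, 2 and 3, against 2.29%, 1.68% and 1.62% in WT 1, 2 and 3. WT 1 was also the library with the fewest reads, and the part of depth in its values was not tested. The value without WT 1 is given for many named differences, and its absence elsewhere does not mean that a difference stayed the same.

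A row was tested where its mean over the 6 libraries lay at least 1 above the lowest value in the table on the deposited log2-like scale, a level of 27.6 normalised reads. Of the 80 rows 63 passed this filter. Differences are knockdown minus WT on that scale, which understates the change of weakly expressed genes, and p-values are from limma, adjusted by Benjamini and Hochberg over all 13558 tested genes.

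Among the tested chaperone rows 3 fell and none rose at an adjusted p under 0.05 (limma). Those that fell were DNAJC3 and DNAJC16, J proteins of the ER, and HSPA4L, an HSP110-type exchange factor of the cytosol. This was 3 of 63 rows lower and 0 of 63 higher, where 2.32% of all tested genes were called lower and 1.78% higher, 4.1% in either direction. At an unadjusted p under 0.05 limma gave 14 lower and 5 higher rows, where 11.2% of all tested genes were lower and 10.8% higher at that level. The chaperone rows leaned downward: 45 of 63 were lower in knockdown (71.4%), against 49.0% of all tested genes. Their median difference was −0.15 beside 0.01 for all genes. Of the lower rows, HSPA6, DNAJC12 and HSPA12B passed the filter through their WT values. Their knockdown means of 19.6, 27.3 and 24.3 normalised reads lay under its level, so the filter itself favoured a lower difference there. With the filter at 2 above the lowest value, 40 of 55 rows were lower (median −0.19, beside 0.01 for all genes). Without WT 1, 39 of 62 rows were lower, the median was −0.07, and the calls were DNAJC3, DNAJC16 and HSPA13 lower and HSPE1 higher. Without knockdown 1, 2 or 3 the only call was DNAJC3, as calls over all tested genes went to 56, 125 and 91, against 556 with all 6 libraries. Groups did not overlap for 16 rows that were lower and 7 that were higher, 36.5% of the rows beside 27.8% of all tested genes.

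**Figure D1:**
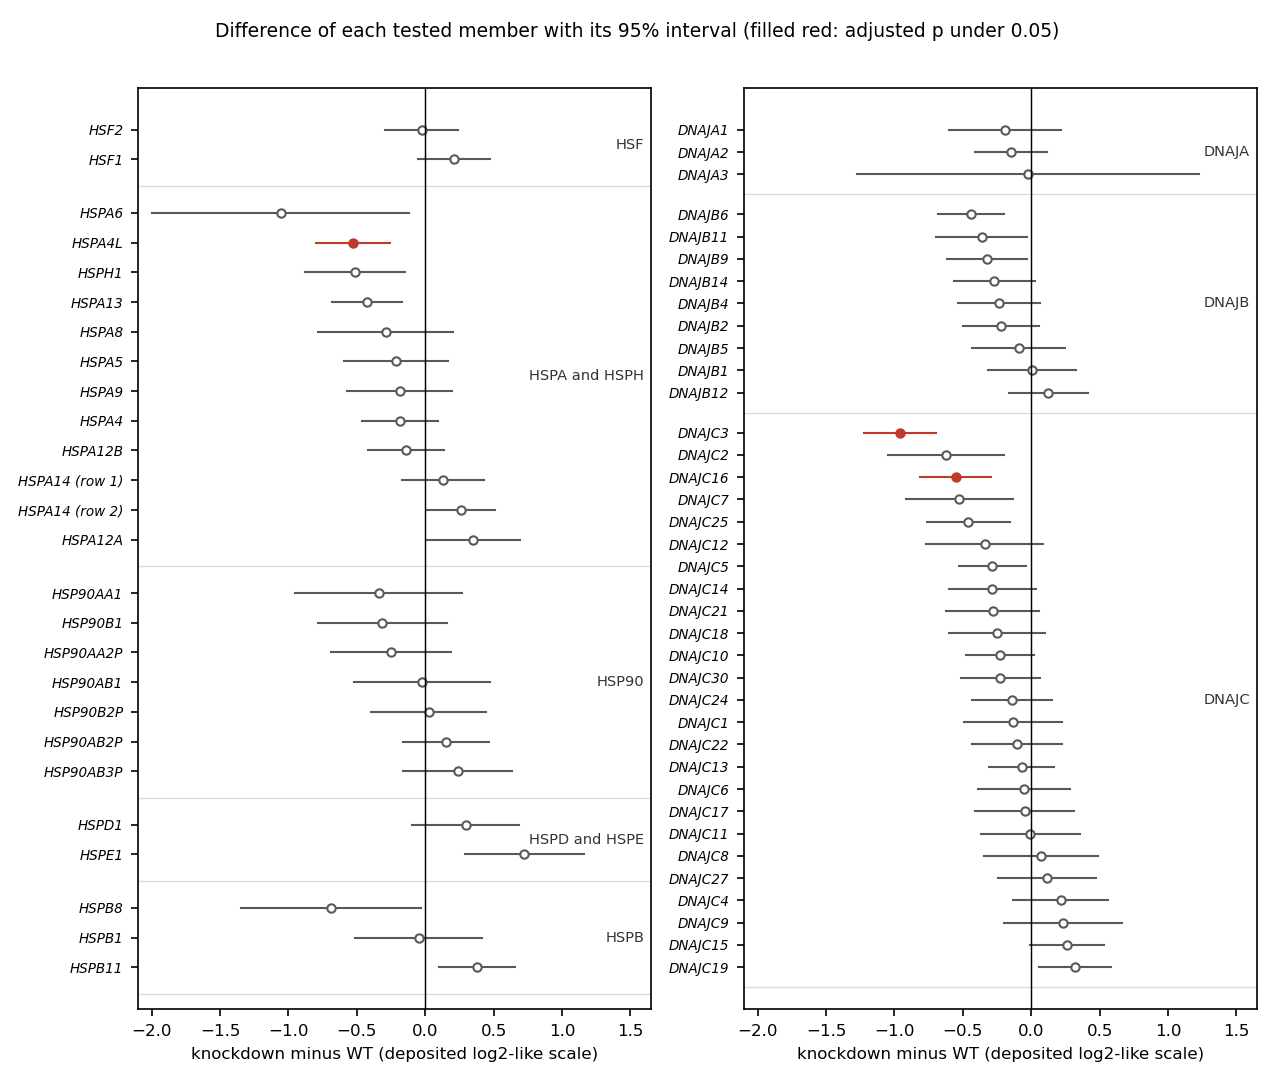
Difference of each of the 63 tested chaperone rows (knockdown minus WT, deposited log2-like scale, horizontal axis) with its 95% interval from limma, grouped by family, with DNAJC3, DNAJC16 and HSPA4L filled as the called genes. Most points lie left of 0, and HSPE1 at 0.72 and HSPA6 at −1.06 mark the ends. The knockdown mean of HSPA6 lay under the filter level.

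DNAJC3 had the lowest p of the set. It encodes an ER-lumenal J protein (p58IPK) that works with the ER HSP70, HSPA5, and is known as an inhibitor of the stress kinase PERK. The gene lies on the plus strand of chromosome 13 at 95677139 to 95794989 (GRCh38, GENCODE 29). DNAJC3 had 914, 953 and 829.5 normalised reads in knockdown 1, 2 and 3, against 1716, 1778.5 and 2069 in WT 1, 2 and 3. All 3 knockdown libraries lay far under all 3 WT libraries, and between 758 and 2820 recovered reads stood behind each value. The means were 899 ± 63.2 in knockdown and 1854 ± 188 in WT (SD, n = 3 each), 48.5% of WT, with a difference of −0.96 (SE 0.12, 95% interval −1.23 to −0.70, limma adjusted p = 0.00656). It was called in each of the 16 alternative fits against a difference of 0 (adjusted p from 0.000498 to 0.0463), and was −1.01 without WT 1. None of its 28 tested neighbours within 5 Mb had a difference as low, and their median was 0.08.

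DNAJC16, a J protein of the ER membrane on the plus strand of chromosome 1 at 15526813 to 15592379, had 477, 463 and 452 normalised reads in knockdown 1, 2 and 3 and 698, 794 and 694 in WT 1, 2 and 3. The knockdown values were close together and all under the lowest WT value. The means were 464 ± 12.5 in knockdown and 729 ± 56.6 in WT (SD, n = 3 each), 63.6% of WT, with a difference of −0.55 (SE 0.12, limma adjusted p = 0.0325). The call held in 11 of 16 alternatives. It missed the threshold without knockdown 1, 2 or 3 (adjusted p = 0.119, 0.0935 and 0.135) and without WT 2 (0.0824), and held without WT 1 (0.0348). Its 66 tested neighbours within 5 Mb had a median of 0.12, and none was as low.

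HSPA4L lies on the plus strand of chromosome 4 at 127781821 to 127840733. It had 847, 966 and 956 normalised reads in knockdown 1, 2 and 3 and 1493.5, 1449 and 1204 in WT 1, 2 and 3, again with no overlap. The means were 923 ± 66.0 in knockdown and 1382 ± 156 in WT (SD, n = 3 each), 66.8% of WT, with a difference of −0.53 (SE 0.12, limma adjusted p = 0.0431). The call held in 9 of 16 alternatives and was lost without knockdown 1, 2 or 3 (adjusted p = 0.177, 0.0999 and 0.136), without WT 1 (0.0634) or WT 2 (0.103), and without the mean-variance trend (0.0505). None of 16 tested neighbours within 5 Mb was as low (median −0.06). Antisense transcripts share 4.61% and 1.57% of its exon bases in GENCODE 29, and whether reads were counted by strand is unknown here.

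**Figure D2:**
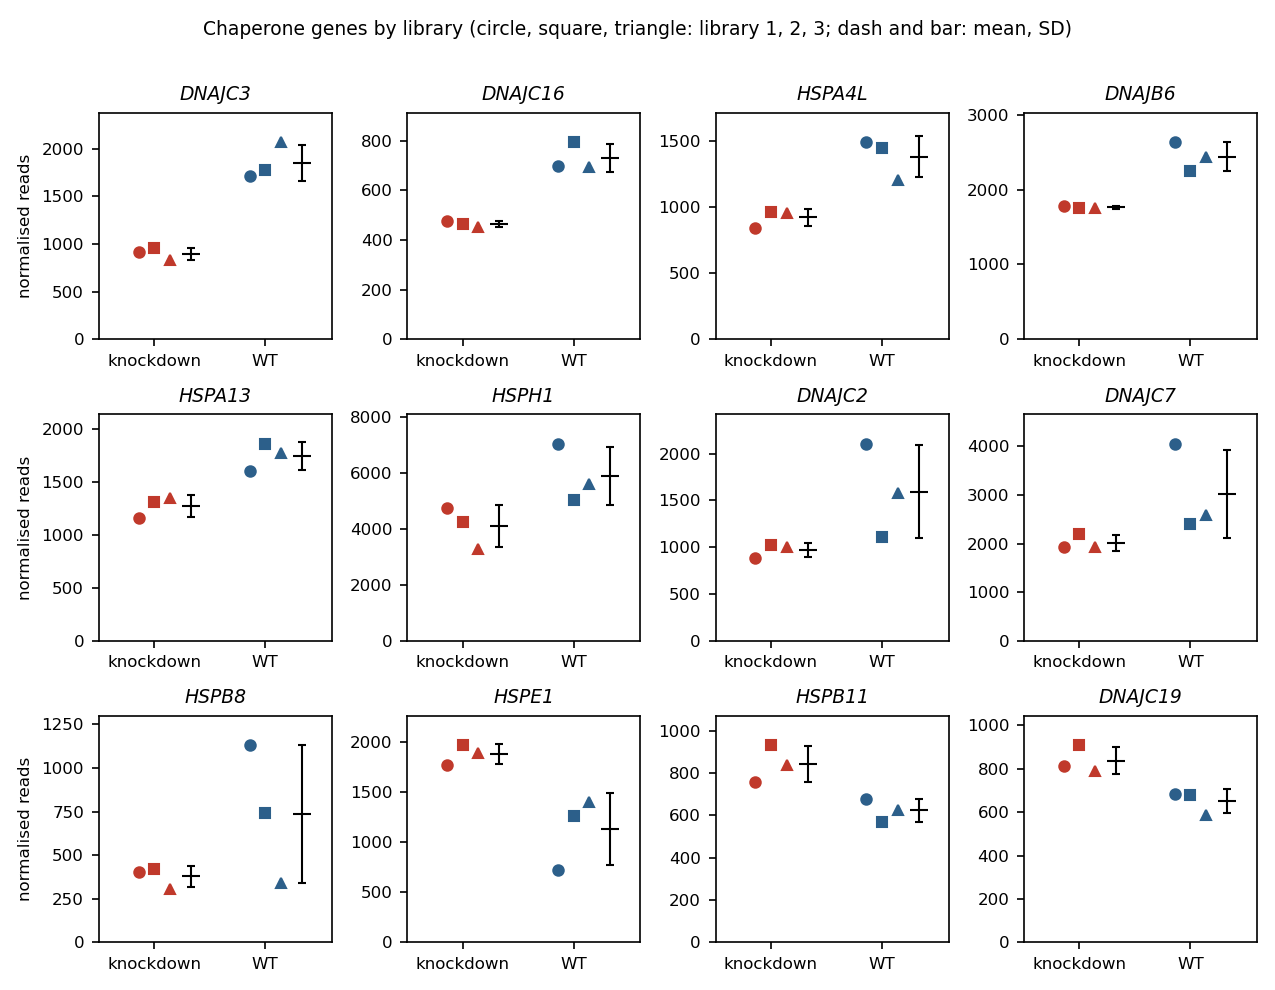
Normalised reads (vertical axes, from 0) of 12 chaperone genes in the 3 knockdown and 3 WT libraries, with the mean and SD beside the points. The groups do not overlap for any gene shown except HSPB8, and the WT points of DNAJC2, DNAJC7, HSPB8 and HSPE1 spread far more widely than their knockdown points. WT also had the larger SD for the other genes shown except HSPB11 and DNAJC19, with DNAJB6 among them (192 in WT, 16.6 in knockdown).

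Promoter sequences were set beside these results because 2 of the transcription programmes of the chaperone genes have known DNA elements. Windows of 250 bases before the RefSeq start (GRCh38.p14) were searched on both strands for the heat shock element bound by HSF1, spelled GAA, TTC and GAA with 2 bases of any kind between neighbouring blocks, and for the ER stress response element, spelled CCAAT and CCACG with 9 bases of any kind between them. Capitals below mark these elements. Where RefSeq lists several starts, the window nearest the GENCODE 29 gene start is shown. The 3 called genes come before 1 gene near the threshold and 3 genes that hold the elements. The windows were chr13:95676889-95677138 (plus strand) for DNAJC3, chr1:15526598-15526847 (plus) for DNAJC16, chr4:127781546-127781795 (plus) for HSPA4L, chr7:157336754-157337003 (plus) for DNAJB6, chr1:161524290-161524539 (plus) for HSPA6, chr9:125241344-125241593 (minus) for HSPA5 and chr12:103930160-103930409 (plus) for HSP90B1.
DNAJC3: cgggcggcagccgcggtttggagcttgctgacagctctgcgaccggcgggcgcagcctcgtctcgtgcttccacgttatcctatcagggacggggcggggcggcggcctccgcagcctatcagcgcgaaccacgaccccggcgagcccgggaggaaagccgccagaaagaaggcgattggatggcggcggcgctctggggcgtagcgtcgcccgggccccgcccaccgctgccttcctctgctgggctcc
DNAJC16: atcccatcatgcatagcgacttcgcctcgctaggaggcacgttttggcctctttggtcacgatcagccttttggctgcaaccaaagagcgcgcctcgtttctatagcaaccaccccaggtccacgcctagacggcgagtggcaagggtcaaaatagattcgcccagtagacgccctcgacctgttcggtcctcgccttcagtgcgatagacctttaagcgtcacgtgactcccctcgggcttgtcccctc
HSPA4L: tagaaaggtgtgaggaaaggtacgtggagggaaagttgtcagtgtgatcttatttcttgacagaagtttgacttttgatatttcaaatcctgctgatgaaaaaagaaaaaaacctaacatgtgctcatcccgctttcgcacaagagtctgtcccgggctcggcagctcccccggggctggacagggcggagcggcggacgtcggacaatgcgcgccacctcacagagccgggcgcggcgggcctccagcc
DNAJB6: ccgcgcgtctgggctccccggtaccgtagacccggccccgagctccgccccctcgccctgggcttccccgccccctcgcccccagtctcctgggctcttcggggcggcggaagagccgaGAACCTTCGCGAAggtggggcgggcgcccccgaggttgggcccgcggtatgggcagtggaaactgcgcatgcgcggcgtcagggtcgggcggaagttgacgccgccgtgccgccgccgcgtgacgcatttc
HSPA6: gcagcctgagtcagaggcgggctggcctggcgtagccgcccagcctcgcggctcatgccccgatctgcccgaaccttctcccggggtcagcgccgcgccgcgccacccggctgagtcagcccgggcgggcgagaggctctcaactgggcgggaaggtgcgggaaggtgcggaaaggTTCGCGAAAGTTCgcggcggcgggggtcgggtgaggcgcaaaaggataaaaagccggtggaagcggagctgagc
HSPA5: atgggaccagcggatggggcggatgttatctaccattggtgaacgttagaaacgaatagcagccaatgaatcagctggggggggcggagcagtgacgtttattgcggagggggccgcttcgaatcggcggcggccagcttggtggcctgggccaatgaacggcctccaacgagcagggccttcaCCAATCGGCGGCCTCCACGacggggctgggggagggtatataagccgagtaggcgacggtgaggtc
HSP90B1: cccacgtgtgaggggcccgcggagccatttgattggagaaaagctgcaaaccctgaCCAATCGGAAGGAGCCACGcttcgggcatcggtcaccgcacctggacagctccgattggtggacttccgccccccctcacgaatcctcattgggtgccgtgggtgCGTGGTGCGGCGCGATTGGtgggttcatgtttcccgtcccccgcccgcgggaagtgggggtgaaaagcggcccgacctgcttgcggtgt

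Neither element was found in the windows of DNAJC3, DNAJC16 and HSPA4L, which says only that these letters are not there. The heat shock element was present at 155 of 35116 RefSeq starts (0.441%) and at some start of 6 of the 61 chaperone genes matched by symbol, namely DNAJB6, HSP90AA1, HSP90AB1, HSPA6, HSPA8 and HSPD1. The ER stress response element was present at 26 starts (0.0740%), among them HSPA5 and HSP90B1, and the second form of that element, ATTGG and CCACG with 1 base between them, at 18 starts (0.0513%), none of them of a chaperone gene. Differences of the 6 genes with a heat shock element were −0.44 for DNAJB6, −0.34 for HSP90AA1, −0.02 for HSP90AB1, −1.06 for HSPA6, −0.29 for HSPA8 and 0.30 for HSPD1, and none passed the test.

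The heat shock factors did not pass the test. HSF1, the main stress-responsive factor, had 3965, 3182 and 3419 normalised reads in knockdown 1, 2 and 3, against 3018, 3134 and 2892 in WT 1, 2 and 3. All knockdown values were above all WT values, by a narrow margin (difference 0.21, SE 0.12, limma adjusted p = 0.323, and 0.13 without knockdown 1). HSF2, a related factor active in development, averaged 899.5 ± 75.3 in knockdown and 919 ± 81.1 in WT (SD, n = 3 each; difference −0.03, 95% interval −0.29 to 0.24), with overlapping groups. Among 16 tested HSF relatives and HSF1 regulators none passed (limma; 4 lower and 1 higher at an unadjusted p under 0.05, median −0.02). Of 22 HSF1 targets outside the chaperone families none passed either (4 lower and 1 higher unadjusted, median −0.14, and 0.05 without WT 1). RRAD, a small GTPase, came nearest with 401 normalised reads in knockdown and 933.5 in WT (difference −1.04, limma adjusted p = 0.0570), and it passed in 5 of 16 alternatives, without WT 1 among them (adjusted p = 0.0296). Both lists were compiled with earlier results of these data known. The target list shares genes with the partner and chaperonin lists given below, so these are not separate results. Among all tested genes 4.1% passed, and 11.2% were lower and 10.8% higher at an unadjusted p under 0.05 (limma).

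Among the HSP70 genes the housekeeping forms were the most abundant and did not pass. HSPA8, the constitutive cytosolic HSP70, had 51747, 41393 and 39624 normalised reads in knockdown 1, 2 and 3, against 73154, 50679 and 41916 in WT 1, 2 and 3. The high WT mean came mostly from WT 1, and the difference was −0.29 (limma adjusted p = 0.482). It was −0.07 without WT 1, −0.47 without WT 3 and −0.53 with quantile normalisation (adjusted p = 0.0773). HSPA5, the ER form (BiP), averaged 16474 ± 2725 in knockdown and 19125 ± 3266 in WT (SD, n = 3 each). Its difference was −0.21, and −0.09 without WT 1, with −0.34 and −0.12 as the ends of the range when any library was left out in place of WT 1. HSPA9, the mitochondrial form, averaged 15367 ± 1202 in knockdown and 17789 ± 4068 in WT (SD, n = 3 each), a difference of −0.19 that was −0.02 without WT 1 and −0.04 with library weights. HSPA13, a microsomal HSP70, had 1157, 1313 and 1353 normalised reads in knockdown 1, 2 and 3 and 1603, 1860 and 1771 in WT 1, 2 and 3, without overlap. Its difference of −0.42 (SE 0.12, limma adjusted p = 0.0714) passed without WT 1 (adjusted p = 0.0470) and with library weights (0.0337). Those fits called 728 and 1213 genes in all, against 556 with all 6 libraries unweighted. The 10 tested neighbours of HSPA13 within 5 Mb had a median of −0.22, and 1 of them was lower than it.

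The heat-inducible pair HSPA1A and HSPA1B was close to absent from the counts. HSPA1A had 0, 2 and 0 recovered reads in knockdown and 0, 10 and 0 in WT, and HSPA1B had 0 in each knockdown library and 0, 10 and 0 in WT. The coding sequences of these genes are nearly identical, so their counts are uncertain. HSPA6, another stress-inducible HSP70, had 8.10, 30.2 and 20.4 normalised reads in knockdown 1, 2 and 3 and 73.2, 24.6 and 370 in WT 1, 2 and 3, which overlapped and left the difference of −1.06 (SE 0.42) short of the threshold (limma adjusted p = 0.180). HSPA12A, an atypical HSP70 of neural tissue, had 676, 883 and 667 normalised reads in knockdown 1, 2 and 3 and 568, 660 and 457.5 in WT 1, 2 and 3 (difference 0.35, limma adjusted p = 0.217, and 0.23 without WT 3). The 2 rows named HSPA14, a ribosome-associated HSP70, had differences of 0.13 (0.21 without WT 1) and 0.26, neither past the test.

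Of the HSP110 exchange factors HSPA4L fell, as given above, and HSPH1 and HSPA4 did not pass. HSPH1, the heat-inducible one, had 4742, 4258 and 3277 normalised reads in knockdown 1, 2 and 3, against 7032, 5019 and 5597 in WT 1, 2 and 3. The groups did not overlap, yet the spread was wider than for HSPA4L and the difference of −0.51 (SE 0.17) did not pass (limma adjusted p = 0.111, range over alternatives 0.0667 to 0.363). Without WT 1 the difference of HSPH1 was −0.38 (limma adjusted p = 0.179). HSPA4, the closest relative of HSPA4L, had 11375, 11483 and 11106 normalised reads in knockdown 1, 2 and 3 and 13779, 13369 and 11622 in WT 1, 2 and 3 (difference −0.19, SE 0.12, limma adjusted p = 0.421). Whether HSPA4L differed more than HSPA4 was not tested.

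Cytosolic HSP90 made up the largest share of the set, and its difference rested on WT 1. HSP90AB1, the constitutive form, averaged 30082 normalised reads per kb of exon in knockdown and 31279 in WT, and HSP90AA1, the inducible form, 13765 and 18408. HSP90AA1 had 74479, 77075 and 65169 normalised reads in knockdown 1, 2 and 3, against 142960, 82741 and 64116 in WT 1, 2 and 3. WT 1 lay far above the other 5 libraries, which overlapped, so the difference of −0.34 (limma adjusted p = 0.508) was −0.02 without WT 1 and −0.59 without WT 3. HSP90AB1 was at −0.02, and at 0.17 without WT 1. HSP90B1, the ER form (GRP94), had 18796, 24016 and 20347 in knockdown 1, 2 and 3 and 36489, 24110 and 20134 in WT 1, 2 and 3 (difference −0.31, −0.07 without WT 1 and −0.50 without WT 3). The 4 tested pseudogene rows of this family ranged from −0.25 to 0.24, and their reads may come from the parent genes.

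The mitochondrial chaperonin genes had higher means in knockdown without passing the test. HSPE1 (HSP10) and HSPD1 (HSP60) lie head to head on chromosome 2, with RefSeq starts 105 bases apart, and share a promoter. HSPE1 had 1765, 1962 and 1891 normalised reads in knockdown 1, 2 and 3, against 723, 1263 and 1403 in WT 1, 2 and 3. Every knockdown library was above every WT library, with WT 1 the lowest of the 6. The means were 1872 ± 99.7 in knockdown and 1130 ± 359 in WT (SD, n = 3 each), and the difference was 0.72 (SE 0.20, limma adjusted p = 0.0695). Without WT 1 the difference was smaller at 0.46 and passed (adjusted p = 0.0487), in a fit that called 728 genes in all. It also passed without WT 3 (0.0349), with library weights (0.0220) and with no filter (0.0334). HSPD1 had 46435, 52025 and 50243 in knockdown 1, 2 and 3 and 49265, 36409 and 36501 in WT 1, 2 and 3 (difference 0.30, limma adjusted p = 0.357). Here WT 1 lay among the knockdown libraries, and without it the difference was 0.44 (adjusted p = 0.108), while quantile normalisation left 0.09. Both genes have many processed pseudogenes, and HSPE1 shares exon bases with HSPD1 (14.2%) and with a readthrough transcript (9.71%), so single values are uncertain.

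None of the 3 tested HSPB rows was called. CRYAB, a small heat shock protein under another symbol, averaged 2835 normalised reads in knockdown and 4585 in WT. Its groups overlapped, and the difference of −0.74 (SE 0.28) did not pass (limma adjusted p = 0.163). HSPB1 (HSP27) had 20226, 11030 and 15414 normalised reads in knockdown 1, 2 and 3 and 17850, 15945 and 13406 in WT 1, 2 and 3, with overlapping groups and a difference of −0.05 (0.05 without WT 1). HSPB8, which acts with BAG3 in clearing aggregates, had 404, 422.5 and 309 in knockdown and 1129, 739 and 341 in WT 1, 2 and 3. WT 3 lay within the knockdown range, and the difference of −0.69 (SE 0.30, limma adjusted p = 0.207) was −0.35 without WT 1 and passed without WT 3 and with library weights. HSPB11, named with this family but a subunit of the intraflagellar transport complex (IFT25), had 759, 931 and 838 in knockdown 1, 2 and 3 and 676, 569 and 625 in WT 1, 2 and 3, without overlap (difference 0.38, SE 0.12, limma adjusted p = 0.115).

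Of the class A J proteins, which work with HSPA8 in general folding, none passed. DNAJA1 had 9174, 8438 and 7895 normalised reads in knockdown 1, 2 and 3 and 13349, 8481 and 8049 in WT 1, 2 and 3. WT 1 alone was high, and the difference was −0.19 with it and 0.04 without it. DNAJA2 was lower in each knockdown library, with 2469, 2475 and 2574 against 3208, 2610 and 2576 in WT 1, 2 and 3, by a margin within the spread of WT (difference −0.15, and −0.05 without WT 1). DNAJA3, the mitochondrial class A protein, had 258, 37.7 and 26.8 in knockdown 1, 2 and 3 and 32.2, 349 and 17.7 in WT 1, 2 and 3, so that knockdown 1 and WT 2 stood apart from the other 4 libraries.

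Class B J proteins were lower in 7 of 9 tested cases, with a median difference of −0.24 (−0.25 without WT 1) and no call. DNAJB6, which suppresses aggregation of polyglutamine proteins, had 1782, 1749 and 1761 normalised reads in knockdown 1, 2 and 3, against 2634, 2250 and 2432 in WT 1, 2 and 3. The knockdown values differed by little and lay well under WT, at 72.3% of its mean, and the difference of −0.44 (SE 0.11) just missed the threshold (limma adjusted p = 0.0506, range over 16 alternatives 0.0298 to 0.189, past it in 5). Its 19 tested neighbours within 5 Mb had a median of −0.24, and 16 of them were lower in knockdown. DNAJB1, the main heat-inducible J protein, was nearly level, with 4399, 3031 and 3431 normalised reads in knockdown 1, 2 and 3 and 3884, 3431 and 3387 in WT 1, 2 and 3 (difference 0.01, 95% interval −0.31 to 0.33). The ER members DNAJB9 and DNAJB11, both partners of HSPA5, averaged 425 ± 36.4 and 893 ± 70.0 normalised reads in knockdown against 558 ± 71.2 and 1192 ± 266 in WT (SD, n = 3 each). Their groups did not overlap, and their differences of −0.32 and −0.36 did not pass (limma adjusted p = 0.189 and 0.195). Without WT 1 the difference of DNAJB11 was −0.20. The 38 tested neighbours of DNAJB9 within 5 Mb had a median of −0.15, and 30 of them were lower in knockdown.

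Class C J proteins, which share only the J domain, were 25 of the 63 tested rows and held 2 of the 3 calls. That was 8% of them called lower, beside 2.32% of all tested genes. Of 25 tested, 19 were lower (median −0.14, and −0.12 without WT 1). DNAJC2, a ribosome-bound J protein that partners HSPA14, had 883, 1024 and 999 normalised reads in knockdown 1, 2 and 3 and 2105.5, 1106 and 1575 in WT 1, 2 and 3. WT scattered widely and the difference of −0.62 (SE 0.19, limma adjusted p = 0.0955) was −0.41 without WT 1. The 104 tested neighbours of DNAJC2 within 5 Mb had a median of −0.14, and 80 of them were lower in knockdown. PMPCB, on the opposite strand, shares 9.57% of the exon bases of DNAJC2. DNAJC7, which links HSP70 and HSP90, had 1924, 2193 and 1922 in knockdown 1, 2 and 3 and 4053, 2411 and 2597 in WT 1, 2 and 3 (difference −0.53, limma adjusted p = 0.121, and −0.30 without WT 1). DNAJC7 lies on chromosome 17, where its 144 tested neighbours within 5 Mb had a median of −0.36 and 31 were lower than it. At the other end DNAJC19 and DNAJC15, J proteins of the mitochondrial import motor, had 837.5 ± 61.9 and 2179 ± 296 normalised reads in knockdown against 651 ± 56.3 and 1791 ± 12.6 in WT (SD, n = 3 each). Both had groups that did not overlap, and neither difference (0.32 and 0.26) passed the test (limma adjusted p = 0.159 and 0.241).

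Sorted by where their proteins work, as far as that is known, the rows differed in how far they depended on WT 1. This grouping was made after values were seen and carries no test. Of 13 ER genes 12 were lower, with a median difference of −0.28 (−0.26 without WT 1), and their median deviation from the mean of the 6 libraries was −0.17, −0.18 and −0.13 in knockdown 1, 2 and 3, against 0.23, 0.18 and 0.10 in WT 1, 2 and 3. All 3 knockdown libraries were thus on the low side and all 3 WT libraries on the high side. Of 26 rows of the cytosol and nucleus 20 were lower, with a median of −0.19 that was −0.06 without WT 1. Their median deviation was −0.01, −0.10 and −0.14 in knockdown 1, 2 and 3 and 0.32, 0.01 and −0.07 in WT 1, 2 and 3, so that WT 2 and WT 3 lay within or close to the knockdown range. Of 8 mitochondrial genes 4 were higher and 4 lower (median 0.13, and 0.23 without WT 1). Among ER chaperones with other symbols, HYOU1, the HSP110-type exchange factor of the ER, had 4385 normalised reads in knockdown and 6696 in WT (difference −0.58, SE 0.15, limma adjusted p = 0.0612). Its difference was −0.44 without WT 1 (limma adjusted p = 0.0798). SEC63 had overlapping groups (difference −0.41, limma adjusted p = 0.215). SIL1, listed with the HSP70 and HSP90 partners, had a higher mean in knockdown with overlapping groups (difference 0.17, limma adjusted p = 0.467).

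**Figure D3:**
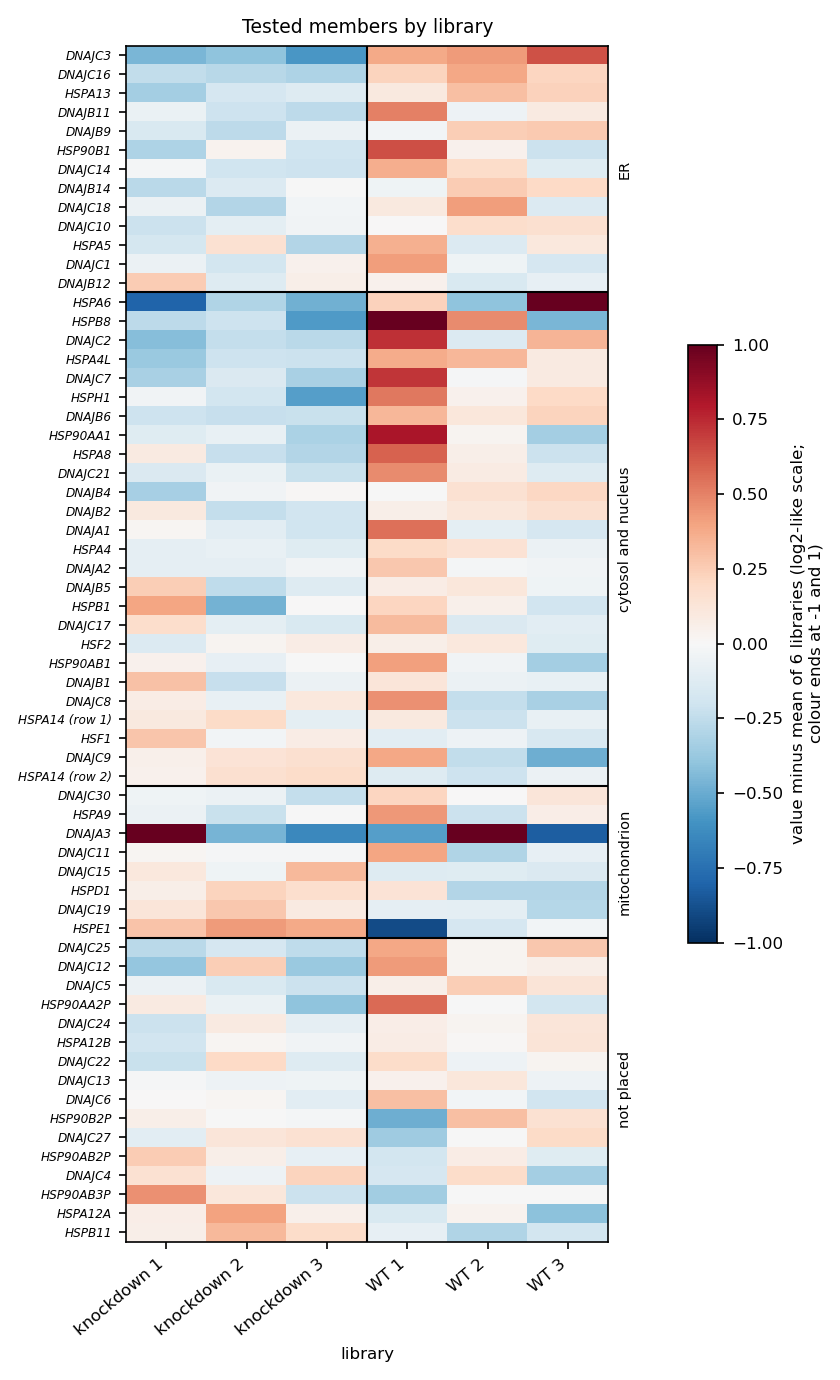
Deviation of each tested chaperone row (down the page) from its mean over the 6 libraries (columns, knockdown left of WT), on the deposited log2-like scale with colours ending at −1 and 1, ordered by compartment and by difference. Most of the ER block is low in the knockdown libraries (DNAJB12 is the 1 gene with a higher mean there). WT 1 is the highest library for 16 of the 26 cytosolic and nuclear rows, 5 of the 13 ER rows and 3 of the 8 mitochondrial rows. DNAJA3 is high in knockdown 1 and WT 2.

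**Figure D4:**
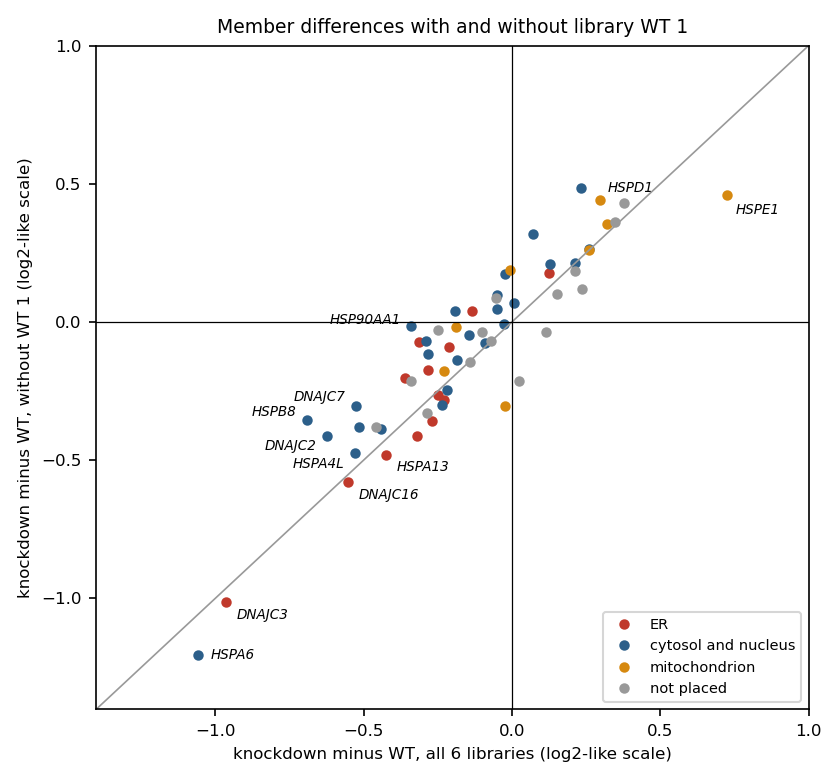
Difference of 62 tested chaperone rows from all 6 libraries (horizontal axis) and from 5 libraries without WT 1 (vertical axis), both knockdown minus WT on the log2-like scale, coloured by compartment, with the line of equal values. DNAJC3, DNAJC16 and HSPA13 stay near the line, whereas HSP90AA1 and DNAJC7 move towards 0.

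No partner of these chaperones was called, but lists this short would hold few or no calls at the share of all tested genes (4.1%). At an unadjusted p under 0.05 limma gave 11.2% of all tested genes as lower and 10.8% as higher. Of 35 tested partners of HSP70 and HSP90, such as exchange factors and HSP90 adaptors, none passed (limma; 1 lower and 3 higher at an unadjusted p under 0.05), and 20 were lower (median −0.09, and 0.05 without WT 1). A list of 16 genes held the cytosolic chaperonin TRiC, its helper prefoldin, and PDCL, PDCL3 and TXNDC9, which belong to neither complex. None of the 16 passed, and none had an unadjusted p under 0.05 (limma, 11 higher, median 0.11 over the whole list). Of 10 tested family members under other symbols, none passed (limma; 4 lower and none higher unadjusted, median −0.04, and −0.13 without WT 1).

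The 17 rows not tested averaged at most 20.2 normalised reads. They comprised 5 pseudogene rows and 12 protein-coding genes, among them DNAJA4, DNAJB7, DNAJB13, DNAJC5B, DNAJC5G, HSPA2, HSPB2, HSPB6 and HSPB9, which are named here after their values were seen. In 5 rows no knockdown library had a read, and the reads in WT were few there, at most 21 in all for HSPB3.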

How the data were processed

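Total RNA of 3 knockdown and 3 WT libraries was sequenced. The submitters' processing notes name STAR, DESeq, Trim Galore, CASAVA 1.8.2, MultiQC and FastQC, and genome build GRCh38. They name no read counter, annotation or strand setting. The deposited values are log2-like and variance-stabilised, scaled by the authors with a size factor per library, going by the table's name and values. Inverting that function (lowest value 5.79, a count of 0) gave normalised reads, and 100% of values became whole reads within a tolerance of 0.01. Normalised reads and SDs come from this inversion.

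Differences (knockdown minus WT) were tested on the deposited scale with limma 3.58.1 in R 4.3.3 (mean-variance trend, two-sided, no covariates) on the 13558 rows at least 1 above the lowest value, with Benjamini-Hochberg adjustment calling genes at 0.05. With 3 libraries a group, the smallest p of an exact permutation test is 0.1. Fits were tested on simulated data. Alternatives were 17 other settings, of which 16 test against a difference of 0.

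Members, lists and tests were chosen with earlier results of these data known. Members named were those called, a core list, and up to 4 per family with the largest differences without overlap. HSPA6, HSPA12B, HSPA14, HSPB8, DNAJA3, DNAJC12, DNAJC15, DNAJC19, RRAD, HYOU1, SEC63, SIL1, CRYAB, PDCL, PDCL3, TXNDC9, KRT8, SOX11, NES and TUBB3 were added after their values were seen. Coordinates are from GENCODE 29 and promoters from RefSeq.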

Additional observations from a re-analysis of the deposited data

How the results depend on the processing

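With all 6 libraries 3 chaperone genes were called lower and 0 higher. Library weights gave 6 lower calls and 1 higher, as calls over all genes went to 1213, against 556 without weights. Lower calls were 1 with the replicate block and 0 when tested against a minimum difference of 0.5. With no filter 1 gene was higher (HSPE1). Leaving out 1 library gave 1 to 4 lower calls, 0 to 1 higher calls and medians of −0.20 to −0.07. The replicate block, on numbers that did not deviate together (same-number correlations −0.0045, −0.25 and 0.0046), kept only DNAJC3 (limma adjusted p = 0.0776 for DNAJC16 and 0.0886 for HSPA4L) and moved calls over all genes to 221, against 556 without it.

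Signs turned for DNAJB1, HSP90AB1, HSPB1 and HSF2, all within 0.05 of 0 with all libraries, and for DNAJA1 (−0.19). These were DNAJB1 with median centring (−0.0087), voom on recovered reads (−0.0216) and leaving out 1 library (−0.14 to 0.12); HSP90AB1 with library weights (0.0166) and leaving out 1 library (−0.20 to 0.17); HSPB1 with library weights (0.0263) and leaving out 1 library (−0.26 to 0.18); HSF2 (−0.0934 to 0.035) and DNAJA1 (−0.32 to 0.0382) leaving out 1 library. The cause was not tested. Over 27 named genes and their alternatives 14 values turned sign, 15 called values lost the threshold, 12 passed it and 418 did neither. Precision is limited by 3 libraries a group: the standard error of most named differences was over 0.1, and genes under the filter level were not tested.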

Other observations

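DNAJA3 was the only one of 13558 tested genes in which knockdown 1 and WT 2 both lay at least 1 above each of the other 4 libraries on the deposited scale; for the other pairs of libraries between 0 and 2 genes did. It had 255, 30 and 25 recovered reads in knockdown 1, 2 and 3, against 22, 554 and 23 in WT 1, 2 and 3. HSPB3, a small heat shock protein, had no read in any knockdown library and 2, 12 and 7 reads in WT 1, 2 and 3, and passed the threshold only where no filter was used (limma adjusted p = 0.0427).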
